A study of Mus musculus with 24 samples.

Results

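Liver plasma protein transcripts were read in RNA sequencing libraries of sorted mouse T cells. They are 9 genes, Alb, Ttr, Hpx, Apoa1, Apoa2, Fga, F2, Ahsg and Serpina1c, of 35817 gene symbols that the files cover. The genes were picked by their measured level in these libraries, as lower in Cat-Tg than in WT donor T cells after transplantation. That contrast, and the change from before to after transplantation, are therefore described here with no test. A total of 15960 genes passed the filter on low counts in the CD8+ libraries and 17227 in the CD4+ libraries, and all 9 plasma protein genes were among them in both cell types. In the Cat-Tg post-transplant libraries they seldom reached the filter's level, a CPM of 1 (CPM is the counts-per-million unit, here with libraries scaled by TMM), and they passed it through the other groups.

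The study asked how a β-catenin transgene in donor T cells changes their behaviour in an allogeneic transplant. There were 8 groups of 3 libraries: 2 genotypes (Cat-Tg and WT), 2 cell types (CD8+ and CD4+ T cells) and 2 times (pre-transplant, or pre-tx, and day 7 post-transplant, or post-tx). Per the study's methods, 3 mice were used for each genotype and time, and the CD8+ and CD4+ cells were both sorted from each mouse. The labels number the libraries without naming mice, so which CD8+ and CD4+ libraries share a mouse is not known here. All donors had the C57BL/6 background, and the spleen was the organ obtained in every group. Cat-Tg mice carry an N-terminal deletion mutant of the human β-catenin gene, were founded in FVB mice from several founder lines, were backcrossed to C57BL/6 and were kept heterozygous. Pre-tx cells were sorted from the spleens of untransplanted mice. Post-tx cells were donor T cells sorted from the spleens of lethally irradiated BALB/c recipients, which had received WT bone marrow depleted of T cells together with CD4+ and CD8+ T cells of 1 genotype mixed in equal numbers. Recipient strain, type of marrow and sorting were thus alike for both genotypes after transplantation, but each genotype had its own recipient mice. The transgene was carried by the donor T cells alone. Mice were matched for age and sex, and their ages are not printed here. The estimated counts do not separate host from donor RNA. The library names of the Cat-Tg and of the WT samples belong to separate series, so that genotype and library series cannot be told apart.

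Plasma proteins of this kind are made and secreted by hepatocytes, which hold their mRNAs at very high levels, and T cells are not known as a source of them. Albumin (Alb), transthyretin (Ttr) and hemopexin (Hpx) are carriers, apolipoproteins A-I and A-II (Apoa1, Apoa2) build high density lipoprotein, fibrinogen alpha (Fga) and prothrombin (F2) serve blood clotting, and fetuin-A (Ahsg) and alpha-1-antitrypsin (Serpina1c) are inhibitors. In hepatocytes their genes are switched on together by liver-enriched transcription factors of the HNF1, HNF4, FOXA and C/EBP families, which bind close to the start sites.

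The regulatory sequence before the start site is shown for 4 of the genes: Alb and Hpx, whose proportion to each other is described further on, and Ahsg and Serpina1c, which had no count in any Cat-Tg CD8+ post-tx library. Each run is the 250 bases before the annotated start, 5′ to 3′ on the gene's strand, from RefSeq (build GRCm38.p6). Capitals mark letters that match 1 of 4 motifs searched on both strands: GGTTAAT (1 arm of an HNF1 site), TGTTTNC (FOXA), TTGCNNAA (C/EBP) and CAAAGTC (1 arm of an HNF4 site). The Alb window lies at chr5:90460620-90460869 on the plus strand, the Hpx window at chr7:105600117-105600366 on the minus strand, the Ahsg window at chr16:22891765-22892014 on the plus strand and the Serpina1c window at chr12:103904951-103905200 on the minus strand. The Hpx window holds 21 bases of an annotated exon and the other windows none.
Alb: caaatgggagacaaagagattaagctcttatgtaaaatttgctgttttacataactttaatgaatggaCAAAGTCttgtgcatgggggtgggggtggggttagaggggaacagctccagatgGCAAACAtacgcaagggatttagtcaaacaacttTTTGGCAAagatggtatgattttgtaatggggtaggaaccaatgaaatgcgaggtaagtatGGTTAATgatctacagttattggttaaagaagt
Hpx: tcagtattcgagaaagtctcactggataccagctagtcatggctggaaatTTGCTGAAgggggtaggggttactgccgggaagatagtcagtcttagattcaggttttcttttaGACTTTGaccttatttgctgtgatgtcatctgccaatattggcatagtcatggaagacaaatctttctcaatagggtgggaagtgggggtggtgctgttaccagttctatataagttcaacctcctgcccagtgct
Ahsg: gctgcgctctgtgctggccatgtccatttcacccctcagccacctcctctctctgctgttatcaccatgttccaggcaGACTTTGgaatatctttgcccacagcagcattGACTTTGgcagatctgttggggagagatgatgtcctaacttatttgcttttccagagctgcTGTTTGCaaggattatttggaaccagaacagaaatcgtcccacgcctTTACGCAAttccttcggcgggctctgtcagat
Serpina1c: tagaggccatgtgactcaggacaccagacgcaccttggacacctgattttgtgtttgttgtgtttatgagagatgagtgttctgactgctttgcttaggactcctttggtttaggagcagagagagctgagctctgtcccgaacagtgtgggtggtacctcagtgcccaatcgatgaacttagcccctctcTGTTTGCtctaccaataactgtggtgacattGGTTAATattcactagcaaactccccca
In the Alb window the matches begin 182 (HNF4), 128 (FOXA), 94 (C/EBP) and 33 (HNF1) bases before the start. The Hpx window has a C/EBP match at 200 and an HNF4 match at 136 bases, the Ahsg window HNF4 matches at 172 and 140, a FOXA match at 79 and a C/EBP match at 32 bases, and the Serpina1c window a FOXA match at 59 and an HNF1 match at 28 bases before the start. Among the 8 members with an entry in the promoter table, 6 held the FOXA letters (Alb, Apoa1, Apoa2, Fga, Ahsg, Serpina1c), 5 the C/EBP letters (Alb, Hpx, Apoa2, Fga, Ahsg), 3 the HNF1 letters (Alb, Fga, Serpina1c) and 3 the HNF4 letters (Alb, Hpx, Ahsg). Of 32851 promoter windows of the same length, 17.8% held the FOXA letters, 9.56% the C/EBP letters, 1.63% the HNF1 letters and 3.84% the HNF4 letters. Members were counted by gene over all windows of a gene, and the shares of all promoters by window. Apoa2 had more than 1 window, with the FOXA and the C/EBP letters in different ones. A match describes the letters in a window and shows no binding. Ttr has no entry. Of the genes whose windows are not printed, Apoa2 lies at chr1:171225054-171226379, Fga at chr3:83026076-83033627 and Apoa1 at chr9:46228580-46230466, all on the plus strand, and F2 at chr2:91625320-91636414 on the minus strand (GENCODE M21, GRCm38).

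Library totals were 11135713 to 50519825 estimated counts (median 27062440), so that 3 counts, the floor used for genes at 0, corresponded to 0.05958 to 0.2703 CPM. Intervals and floors cover counting error only. The pre-tx WT libraries went against their labels. Those labelled CD8 held 96.1 ± 16.6 CPM of Cd4 and 134.5 ± 44.3 CPM of Cd8a (mean ± SD, n = 3), and those labelled CD4 held 86.7 ± 47.3 CPM of Cd4 and 126.1 ± 25.9 CPM of Cd8a. In Cat-Tg pre-tx libraries the other cell type's coreceptor was at 1.71 ± 1.58 CPM (Cd4 in CD8+ cells) and 6.15 ± 2.39 CPM (Cd8a in CD4+ cells), against 719.5 ± 210.7 CPM of Cd8a and 264.9 ± 76.0 CPM of Cd4 for their own. A list of 12 B cell genes summed to 5099 to 8632 CPM in the 6 WT pre-tx libraries and to 172.9 to 668.2 CPM in the 6 Cat-Tg ones. Post-tx libraries of both genotypes held the coreceptor of their label. Every pre-tx comparison of genotypes below rests on these WT libraries, has no version without them, and sets sorted T cells against libraries with many B cell transcripts. Mouse Ctnnb1 read 9.74 to 177.0 CPM over the 24 libraries, with overlapping genotypes in the 4 comparisons, and the human transgene was not measured.

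Albumin, the main carrier and osmotic protein of plasma, was high in most groups and close to the counting floor in Cat-Tg cells after transplantation. Cat-Tg CD8+ post-tx libraries held 0.0335, 0.309 and 0.341 CPM of Alb (1, 9 and 9 counts), where the WT CD8+ post-tx libraries held 11.6, 41.5 and 10.9 CPM. In CD4+ post-tx cells Alb was at 1.5, 0.195 and 0.149 CPM in Cat-Tg and at 101.8, 207.6 and 63.3 CPM in WT. Both cell types thus had every Cat-Tg library below every WT library, and the WT CD4+ libraries lay above the WT CD8+ ones. Before transplantation Alb read 108.3, 77.4 and 24.9 CPM in Cat-Tg CD8+ cells and 23.6, 53.0 and 58.8 CPM in Cat-Tg CD4+ cells. WT pre-tx libraries scattered far more, at 258.5, 734.6 and 1.37 CPM (CD8) and 98.8, 45.7 and 2.56 CPM (CD4). The third WT pre-tx library was the lowest of its group in each cell type.

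Hemopexin, which binds free heme, was likewise near the floor in Cat-Tg post-tx cells. In CPM its WT post-tx CD8+ mean lay above the CD4+ one, unlike that of Alb, though the libraries of the cell types overlapped. The deposited TPM is a unit that divides by transcript length and has no TMM scaling. By TPM the Hpx order was reversed, with means of 55.3 (CD8+) and 90.6 (CD4+). The TMM factors of the WT post-tx libraries were 0.482 to 0.758 in CD8+ and 0.989 to 1.26 in CD4+ cells. A lower factor raises CPM. Hpx was at 0.101, 0.103 and 0.417 CPM in Cat-Tg CD8+ post-tx libraries and at 50.8, 332.8 and 68.7 CPM in the WT ones. CD4+ post-tx libraries held 1.59, 0.176 and 0.149 CPM (Cat-Tg) and 70.1, 160.6 and 36.0 CPM (WT). Transthyretin, a carrier of thyroxine and of retinol-binding protein, had 1, 0 and 13 counts in the Cat-Tg CD8+ post-tx libraries, which gave 0.0335, 0 and 0.492 CPM of Ttr against 4.88, 22.3 and 3.82 CPM in WT. In CD4+ post-tx cells Ttr read 0.264, 0.0586 and 0.0426 CPM in Cat-Tg and 12.8, 18.2 and 5.26 CPM in WT. No carrier overlapped between genotypes after transplantation. The second WT CD8+ post-tx library was the highest of its group for each of the 3 carriers, and it also had the lowest scaling factor of all libraries (0.482).

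Of the lipoprotein genes, Apoa2 kept the most counts in Cat-Tg cells after transplantation. It read 0.637, 0.790 and 1.89 CPM (19, 23 and 50 counts) in CD8+ cells and 1.15, 0.644 and 0.192 CPM in CD4+ cells, against 22.4, 35.7 and 20.1 CPM and 35.5, 66.8 and 15.8 CPM in WT. Its genotypes did not overlap, and its fitted difference was the smallest of the 9 in each cell type. Apoa1, which activates the enzyme that esterifies cholesterol in plasma, had 1, 3 and 4 counts in Cat-Tg CD8+ post-tx libraries (0.0335, 0.103 and 0.152 CPM), with 24.5, 115.9 and 27.4 CPM in WT. In CD4+ post-tx cells it read 1.23, 0 and 0.0851 CPM in Cat-Tg and 28.3, 69.7 and 22.7 CPM in WT. Apoa2 counts were divided between 2 transcripts, Apoa2-201 with 51.9% and Apoa2-204 with 45.5% of them, while 1 transcript held at least 94.8% of the counts of each other member.

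The clotting genes Fga and F2 were near or at the floor in Cat-Tg post-tx cells. Fga had 2 counts in each of the 3 Cat-Tg CD8+ libraries (0.0671, 0.0687 and 0.0758 CPM), where WT held 3.49, 10.8 and 4.46 CPM. In CD4+ cells it had 1 count in each Cat-Tg library, with 12.4, 42.4 and 12 CPM in WT. Pooled over libraries, Fga was 84.6-fold higher in WT in CD8+ cells (95% counting interval 38.4 to 232.4) and 750.2-fold higher in CD4+ cells (256.4 to 3640). F2 had 0, 0 and 1 count in Cat-Tg CD8+ post-tx libraries against 11.3, 9.22 and 0.683 CPM in WT, and 1, 0 and 2 counts in Cat-Tg CD4+ ones against 15.3, 20.4 and 4.99 CPM. The WT value of 0.683 CPM, in the third CD8+ library, was the lowest of any member in a WT post-tx library.

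The inhibitors were the genes with no counts. Ahsg, which keeps calcium phosphate in solution, had 0 counts in all 3 Cat-Tg CD8+ post-tx libraries and 8.37, 42.9 and 8.11 CPM in WT. This was at least 174.3-fold lower, with Cat-Tg set to the floor of 3 counts per library. Serpina1c also had 0 counts in all 3, against 11.9, 15.6 and 4.69 CPM in WT, at least 94.4-fold lower. In CD4+ post-tx cells Ahsg had 4, 2 and 2 counts in Cat-Tg (0.353, 0.0390 and 0.0426 CPM) and 17.3, 45.1 and 7.85 CPM in WT, while Serpina1c had 0, 0 and 2 counts against 7.26, 23.9 and 5.93 CPM. A count of 0 leaves room for levels up to the floor and does not show that a transcript was absent.

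Serpina1c belongs to a cluster of near-identical alpha-1-antitrypsin genes on chromosome 12, and how reads were split among them is uncertain. Serpina1a, Serpina1b and Serpina1d showed the same order after transplantation in both cell types. Serpina1e showed it in CD4+ cells but overlapped in CD8+ cells, where WT held 0 to 0.369 CPM. In Cat-Tg CD8+ post-tx libraries Serpina1a read 0 to 2.05 CPM and Serpina1b 0.172 to 0.833 CPM, against 6.10 to 17.3 and 4.74 to 29.9 CPM in WT. Serpina1d and Serpina1e had no count in any Cat-Tg post-tx library. In total the 4 paralogs summed to 0.172 to 2.88 CPM in Cat-Tg CD8+ and 0.0213 to 1.5 CPM in Cat-Tg CD4+ post-tx libraries, and to 11.9 to 48.8 and 11.4 to 67.3 CPM in the WT ones. Since they may share reads with Serpina1c, these post-tx values are a description, not separate evidence. Over the 3 paralogs that passed the filter, median log2 differences of Cat-Tg minus WT were −4.92 in CD8+ and −7.18 in CD4+ post-tx cells. Before transplantation the medians were −2.59 and −2.45, and 0 of 3 passed in either cell type (edgeR quasi-likelihood test).

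**Figure D1:**
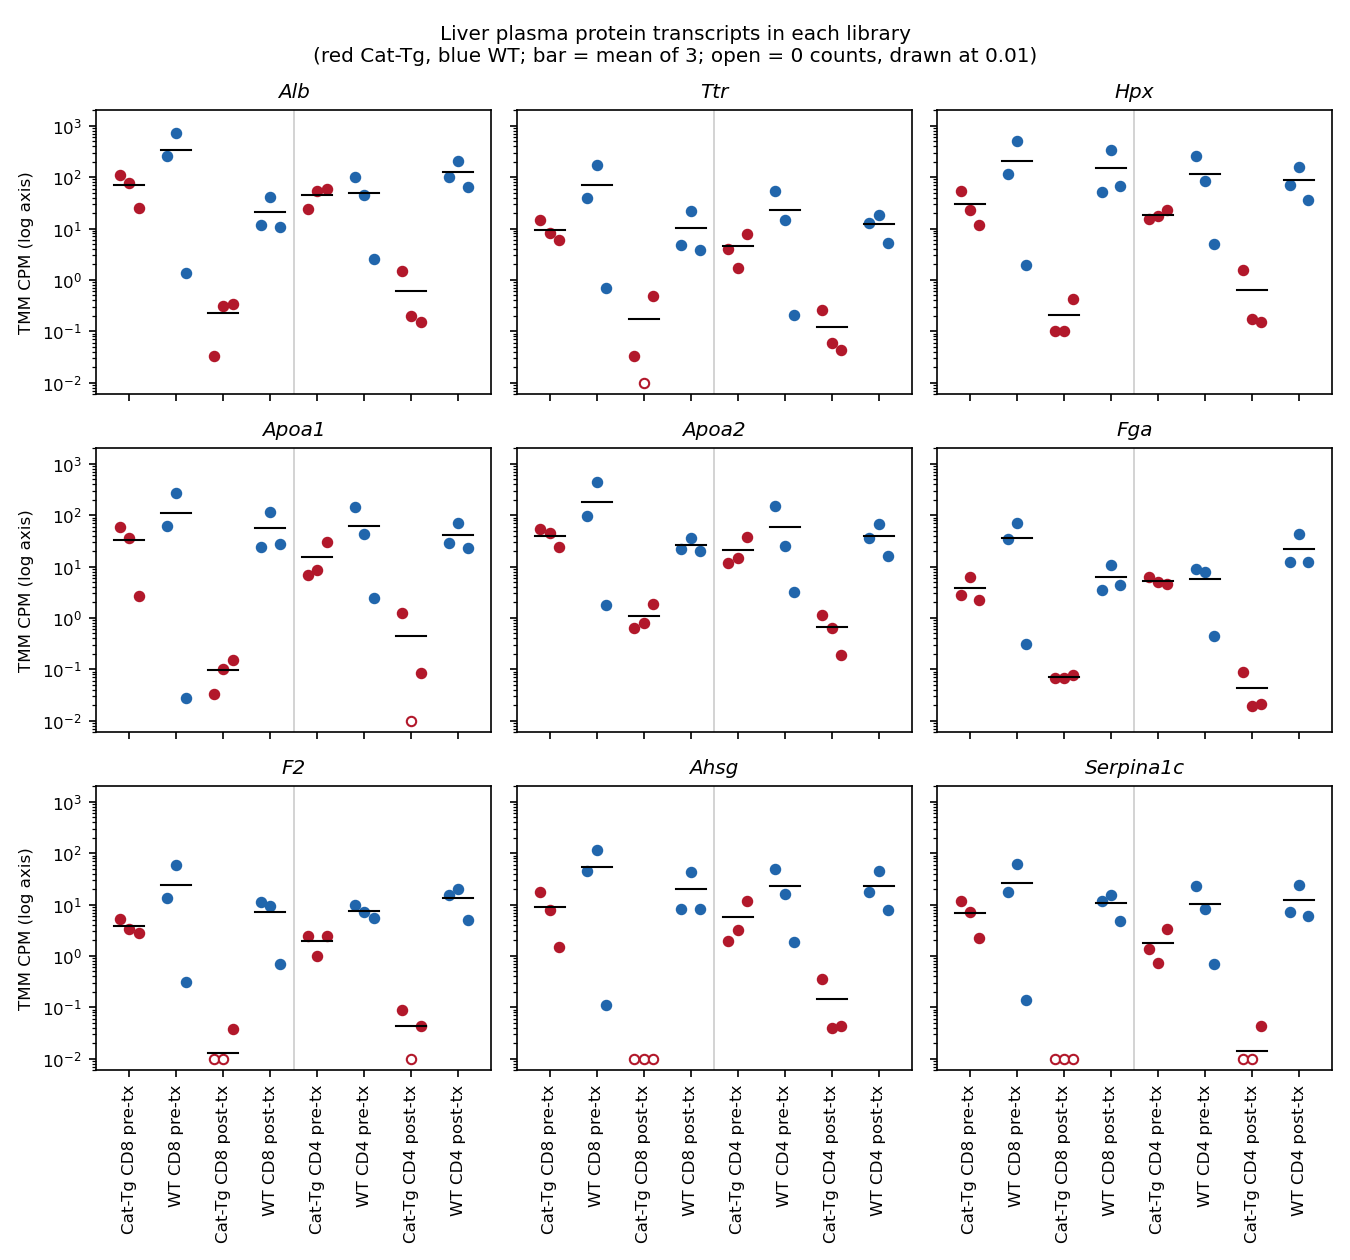
CPM of each of the 9 genes in every library (log axis), grouped by cell type and time, with Cat-Tg in red and WT in blue, a bar at the mean of 3 libraries, and open symbols at 0.01 for libraries with 0 counts. In each panel the Cat-Tg post-tx points lie below all WT post-tx points, and the WT pre-tx points spread most widely, from 1.37 to 734.6 CPM for Alb.

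Summed over the 9 genes, the levels fell into an order of groups. WT CD8+ pre-tx libraries had a mean of 1042 ± 1256 CPM (range 6.72 to 2439, n = 3), followed by WT CD4+ post-tx with 376.5 ± 249.2 (173.9 to 654.7), WT CD4+ pre-tx with 357.3 ± 398.3 (21.8 to 797.5) and WT CD8+ post-tx with 308.3 ± 275.9 (148.9 to 626.8). Below these lay Cat-Tg CD8+ pre-tx with 205.4 ± 124.3 CPM (77.3 to 325.4) and Cat-Tg CD4+ pre-tx with 119.4 ± 54.0 (73.2 to 178.8). Cat-Tg CD4+ post-tx, with 2.72 ± 3.07 CPM (0.766 to 6.26), and Cat-Tg CD8+ post-tx, with 1.90 ± 1.33 (0.905 to 3.41), stood apart from the other 6 groups. Neighbours in this order overlapped in range except the step from Cat-Tg CD4+ pre-tx to Cat-Tg CD4+ post-tx. Of the other 18 libraries, 1, the third WT CD8+ pre-tx library, came near the Cat-Tg post-tx range, at 6.72 CPM. In counts, the 9 genes together had 27 to 90 in each Cat-Tg post-tx library and 2050 to 22305 in each WT post-tx library. In bulk libraries of this kind, fewer cells of a source type and less RNA per cell cannot be told apart.

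After transplantation, fitted log2 differences of Cat-Tg minus WT ranged from −11.87 (SE 2.50, Ahsg) to −4.54 (SE 1.18, Apoa2) in CD8+ cells, with a median of −8.68. With Ahsg and Serpina1c set at their bounds, the median was −6.56. The median over all tested genes was −0.18. In CD4+ cells they ranged from −9.48 (SE 1.21, Fga) to −6.13 (SE 1.33, Apoa2), with a median of −8.07 beside −0.19 over all genes. Some of these fits rest on very few counts: 4 genes in CD8+ (Fga, F2, Ahsg, Serpina1c) and 4 in CD4+ cells (Ttr, Fga, F2, Serpina1c) had at most 3 counts in each Cat-Tg library. With these set to 3 counts per library, the medians were −6.46 in CD8+ and −6.40 in CD4+ cells. Every Cat-Tg library was below every WT library for 9 of 9 genes in both cell types, where 12.2% of all tested genes had this pattern in CD8+ cells and 18.7% in CD4+ cells. The genes were picked for this difference, and nothing is read from these counts. On the summed CPM, the log2 ratio of means was −7.35 in CD8+ and −7.11 in CD4+ cells. Without the first Cat-Tg CD4+ post-tx library, which held 6.26 of summed CPM and had the fewest counts of all libraries (11135713), the CD4+ ratio was −8.63. Without the second WT CD8+ post-tx library the CD8+ ratio was −6.30, and without the third Cat-Tg CD8+ one it was −8.08. By the deposited TPM, which divides counts by transcript length and has no TMM scaling, the CD8+ ratio was −5.46 and the CD4+ ratio −6.91.

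Before transplantation the comparison of genotypes had no part in the choice of the genes, and it was tested. All 9 genes had lower fitted levels in Cat-Tg than in WT CD8+ cells, with log2 differences of −3.10 (SE 1.13, Fga) to −1.70 (SE 1.41, Apoa1) and a median of −2.46 beside −0.07 over all genes. None passed (edgeR quasi-likelihood test, adjusted p 0.103 to 0.528), and 3 had an unadjusted p under 0.05 (Ttr, Hpx, Fga). Of all tested genes, 4.48% were called lower and 4.51% higher in Cat-Tg. In 0 of 9 were all Cat-Tg libraries below all WT libraries, where 18.5% of all tested genes were. The differences were thus not larger than the spread between libraries, which was wide in WT. This rested on 1 library: without the third WT CD8+ pre-tx library 4 of the 9 passed, namely Alb (−2.75, adjusted p = 0.0481), Hpx (−3.35, adjusted p = 0.0353), Apoa2 (−2.70, adjusted p = 0.0245) and Fga (−3.69, adjusted p = 0.00879). Without the second, which was the highest, the median difference was −0.66 and Apoa1 changed sign, to 0.30. With all libraries the median was −0.20 by limma-voom, −2.49 by DESeq2 and −1.53 with the replicate number as a block.

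In CD4+ cells before transplantation the median difference was −1.94, beside 0.03 over all genes. Again 0 of 9 passed, with 3 at an unadjusted p under 0.05 (Hpx, F2, Serpina1c) and adjusted p between 0.0593 and 0.999 by the edgeR quasi-likelihood test. F2 came closest, with 2.40, 1.01 and 2.41 CPM in Cat-Tg and 10, 7.19 and 5.37 CPM in WT, a log2 difference of −1.87 (SE 0.67, adjusted p = 0.0593 by edgeR). It was the 1 gene of 9 without overlap, where 16.3% of all tested genes had all Cat-Tg libraries below all WT libraries. Alb (−0.02, SE 0.96) and Fga (−0.00, SE 0.76) had nearly equal means, and their signs turned with some left-out libraries. Called lower were 7.19% of all tested genes and called higher 13.3%. With the third WT CD4+ pre-tx library left out, 5 of 9 passed: Ttr (−3.12, adjusted p = 0.0116), Hpx (−3.39, adjusted p = 0.00900), F2 (−2.27, adjusted p = 0.0465), Ahsg (−2.75, adjusted p = 0.0401) and Serpina1c (−3.27, adjusted p = 0.0156). Without the first WT CD4+ pre-tx library, which had the highest summed level, the median difference was −0.70. Over single left-out libraries Apoa2 ran from −2.26 to 0.57. The median was −0.93 by limma-voom, −2.12 by DESeq2 and −1.12 with the replicate number as a block. Whether the B cell transcripts of the WT pre-tx libraries had a part in these values was not tested.

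**Figure D2:**
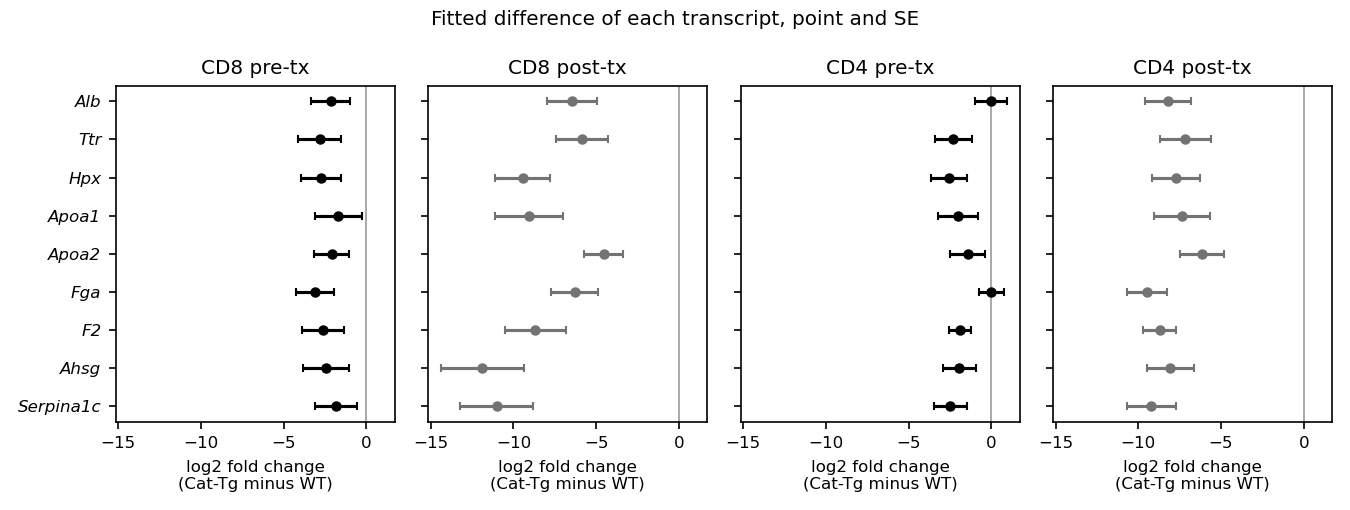
Fitted log2 difference of Cat-Tg minus WT for each of the 9 genes (point, with a bar of 1 SE) in the 4 comparisons, where the post-tx panels in grey are a description of the contrast that chose the genes. Pre-tx differences lie between −3.10 and −0.00, and post-tx differences between −11.87 and −4.54.

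After transplantation the levels were below those before it in Cat-Tg cells. The median log2 difference of post-tx minus pre-tx was −7.97 in Cat-Tg CD8+ cells (−6.31 with Ahsg and Serpina1c at their bounds) and −6.18 in Cat-Tg CD4+ cells, with all 9 genes lower in every post-tx library than in any pre-tx library of their group. Among all tested genes 20.6% (CD8+) and 30.3% (CD4+) had this pattern, and, since the rule used the post-tx libraries, it is given as a description. In WT CD8+ cells the median was −1.92 and in WT CD4+ cells −0.14, beside −0.23 and −0.13 over all genes. Libraries of the 2 times overlapped for 9 of 9 genes in WT CD8+ and for 8 of 9 in WT CD4+ cells. The exception was Fga in WT CD4+ cells, whose 3 libraries lay higher after transplantation, at 12 to 42.4 CPM against 0.447 to 8.98 CPM before. Alb in WT CD8+ cells had the lowest WT difference (−4.11, SE 1.29), and Hpx the one nearest to 0 in that cell type (−0.64, SE 1.12). In WT CD4+ cells Serpina1c was nearest to 0 (0.06, SE 0.91).

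The pre-tx genotype differences were also compared between cell types in a fit of all 24 libraries with 19076 genes. Of the 9, 0 passed and 0 had an unadjusted p under 0.05 (edgeR quasi-likelihood test of the interaction). Fga came closest, with a difference of −2.93 between CD8+ and CD4+ cells (unadjusted p = 0.0515, adjusted p = 0.354), and the adjusted p of the other 8 was 0.679 to 1.00. The fit treats CD8+ and CD4+ libraries as independent, although they came from the same mice. Among WT post-tx libraries, numbered alike in both cell types, the summed level was 149.2, 626.8 and 148.9 CPM in CD8+ and 300.8, 654.7 and 173.9 CPM in CD4+ cells, with the second highest and the third lowest in both. Among WT pre-tx libraries the summed level was 681.3, 2439 and 6.72 CPM in CD8+ and 797.5, 252.6 and 21.8 CPM in CD4+ cells. The third was lowest in both, while the first was highest in CD4+ and the second in CD8+ cells. Cat-Tg libraries ran in opposite orders, with 325.4, 213.5 and 77.3 CPM in CD8+ and 73.2, 106.1 and 178.8 CPM in CD4+ pre-tx cells, and 0.905, 1.37 and 3.41 CPM against 6.26, 1.13 and 0.766 CPM post-tx.

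Proportions among the 9 genes were set side by side as TPM, which divides by transcript length, in the 18 libraries with at least 100 counts of the 9 genes. No Cat-Tg post-tx library reached that number. Apoa2 made up 20.5% to 70.1% of the summed TPM (median 47.5%) and was the most abundant in 17 of 18 libraries. Hpx (6.00% to 40.5%, median 14.3%), Apoa1 (0.335% to 22.7%, median 13.7%) and Alb (3.13% to 24.8%, median 12.8%) followed. The remaining 5, Ttr (median 3.60%), Ahsg (3.57%), Serpina1c (2.06%), Fga (1.27%) and F2 (1.05%), were minor in most libraries. By counts, which are not divided by length, Alb had the largest median share (32%), with Hpx at 22.1%, Apoa2 at 14.8% and Apoa1 at 12.1%. No liver library was used here, so that these proportions could be compared among the T cell libraries but not with liver.

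The proportions were not the same in all libraries. The ratio of Hpx to Alb, in TPM, ran from 0.429 to 11.5, a 26.8-fold range. WT CD8+ post-tx libraries held the upper end, at 6.27 to 11.5, and WT CD4+ post-tx libraries, sorted from the spleens of the same recipients, lay at 0.797 to 1.12. Alb made 3.35% ± 0.199 of the summed TPM in WT CD8+ and 17.9% ± 2.01 in WT CD4+ post-tx cells (SD, n = 3), with no overlap. Hpx made 30% ± 9.75 and 17.1% ± 0.985, again with no overlap and in the opposite direction. Apoa1 was likewise higher in CD8+ (19.1% ± 3.27 against 13.3% ± 2.51) and Fga lower (1.04% ± 0.173 against 2.95% ± 0.804). The other 5 shares overlapped, among them Apoa2 with 34.8% ± 12.4 and 36.3% ± 2.88. An exact two-sided permutation test of 3 libraries against 3 cannot go below p = 0.1, which these 4 genes reached (adjusted p = 0.225 over 9 shares compared), so that this test could not pass 0.05. It compared the libraries as unpaired, although both cell types came from the same mice. Shares of 1 total depend on each other, so that a lower share of Alb raises the rest.

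In the other groups Alb and Hpx were mixed otherwise. Alb took 10.5% to 14.0% of the summed TPM in Cat-Tg CD8+ pre-tx, 12.1% to 24.8% in Cat-Tg CD4+ pre-tx, 7.07% to 17.3% in WT CD8+ pre-tx and 4.98% to 9.46% in WT CD4+ pre-tx libraries. Every Cat-Tg pre-tx library had more Alb than Hpx per length, with Hpx to Alb ratios of 0.429 to 0.721 (CD8+) and 0.465 to 0.923 (CD4+), and every WT CD4+ pre-tx library had more Hpx than Alb (1.5 to 3.74). The lowest Apoa1 share, 0.335%, was in the third WT CD8+ pre-tx library, which had 240 counts of the 9 genes in all.

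**Figure D3:**
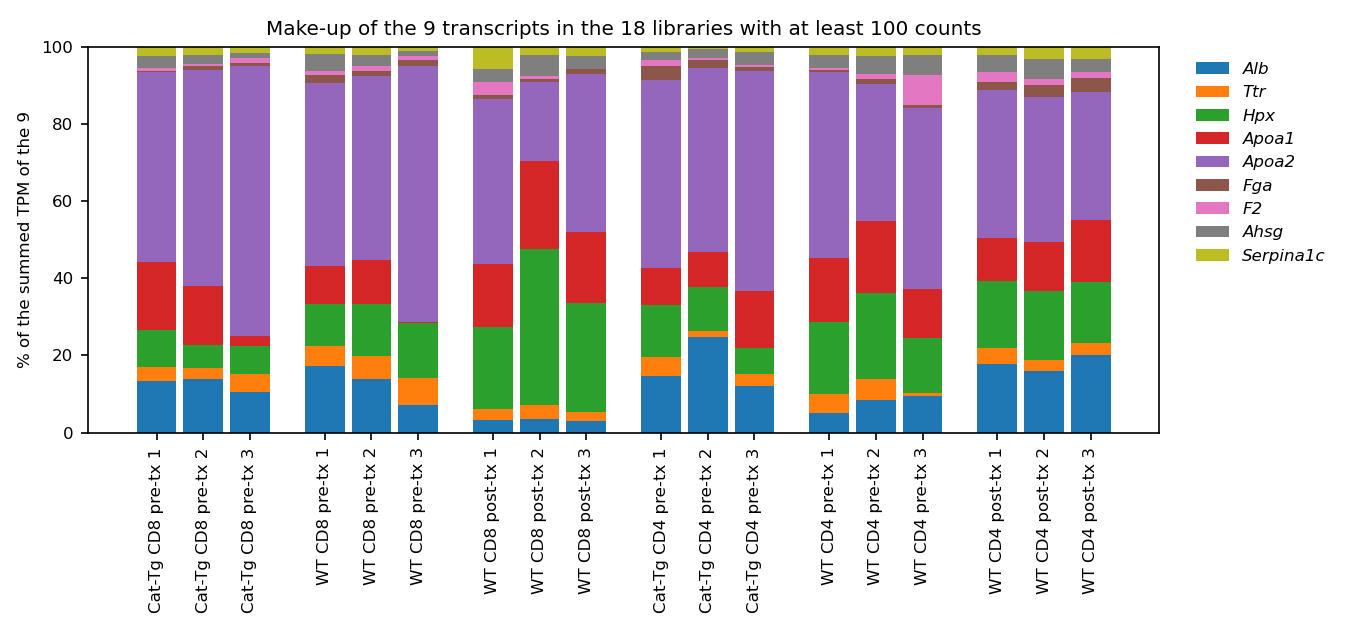
Stacked bars of the percent of summed TPM that each of the 9 genes made up in the 18 libraries with at least 100 counts of them. The Alb part is thin in the 3 WT CD8+ post-tx bars (3.13% to 3.52%) and wider in the 3 WT CD4+ post-tx bars (16.0% to 20.0%), and Apoa2 is the widest part in 17 of the 18 bars.

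Across libraries the levels of the 9 genes varied together. The Pearson correlation of log2 CPM between any 2 of them was 0.900 to 0.983 over the 24 libraries (36 pairs, median 0.944) and 0.936 to 0.994 over the 12 post-tx libraries (median 0.959). These libraries share genotype and time, the genes were chosen for a common pattern, and the values are a description. The 15 other genes whose levels over 24 libraries were most like the mean of the 9, of 19076, all came from the liver lists, among them Fgb (r = 0.986), Saa2 (0.976), Serpina3k (0.972), Gc, Apoc3 and Saa1 (0.970 each), Fabp1 (0.967), Serpina1b (0.962), Fgg, Cyp2e1 and Vtn (0.961 each), Apcs (0.958), Hpd (0.955) and Mat1a (0.952). Fgb encodes the beta chain of the fibrinogen that Fga belongs to. Over the 12 post-tx libraries, of 14345 genes, Apoc3 and Saa2 (0.994 each), Fgb and Itih4 (0.991 each) led. Of the 15, 14 were in the liver lists, the exception being the carboxylesterase gene Ces1d (0.976). The liver lists were made with earlier results of these data known, and Serpina1b may share reads with Serpina1c. The match to the lists is therefore a description.

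The other secreted liver proteins were read from a list of 61 genes. In post-tx CD4+ cells 42 of 55 tested genes were lower in Cat-Tg and 1 was higher (edgeR quasi-likelihood test, adjusted p at most 0.05), with a median log2 difference of −6.93 beside −0.19 over all genes. Called lower were 6.45% of all tested genes and called higher 3.70%. This is the contrast that chose the 9 genes, and the list was made with earlier results known. Post-tx calls on this list and on the enzymes below are therefore no separate evidence. Of the 61, 30 had at most 3 counts in every Cat-Tg CD4+ post-tx library and 18 in every CD8+ one. Those genes could pass the filter only through other groups. Fgb was at 0.232 ± 0.261 CPM in Cat-Tg and 38.3 ± 34.4 in WT (log2 difference −7.94, SE 1.09, adjusted p = 5.68e-04), and the acute phase gene Saa2 at 0.616 ± 0.842 and 76.1 ± 57.1 CPM (−7.59, SE 1.52, adjusted p = 0.00848). All 6 genes that the list classed as acute phase were lower, as were 8 of 9 protease inhibitors and 10 of 15 tested clotting and fibrinolysis genes. Haptoglobin, also an acute phase protein, was classed among the carriers. The gene that was higher was Trf, transferrin, at 2367 ± 549.0 CPM in Cat-Tg and 493.5 ± 85.7 in WT (2.22, SE 0.39, adjusted p = 0.00303). Hp, haptoglobin, did not pass (59.9 ± 21.8 and 142.6 ± 74.6 CPM, adjusted p = 0.268), and both Trf and Hp were above 1 CPM in every Cat-Tg post-tx library. Without the third Cat-Tg CD4+ post-tx library 26 genes were lower.

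In post-tx CD8+ cells 11 of 51 tested genes of this list were lower in Cat-Tg and 0 higher, where 0.570% of all tested genes were called lower and 1.10% higher. The 11 were Gc, Apoc1, Apoc3, Apoc4, Fgb, Kng1, Serpinf2, Itih3, Itih4, Saa1 and Saa2, and the median of the list was −4.73 beside −0.18. Saa2 read 0.132 ± 0.0841 CPM in Cat-Tg and 73.7 ± 72.5 in WT (−9.01, SE 1.55, adjusted p = 0.0144), and Fgb 0.0849 ± 0.0774 and 14.4 ± 6.54 (−7.31, SE 1.49, adjusted p = 0.0310). Trf was at 89.8 ± 22.5 and 86.9 ± 66.9 CPM, so that the genotypes overlapped (0.13, SE 0.69, adjusted p = 0.941). The count of 11 was 0 without the first or the second Cat-Tg CD8+ post-tx library and 7 without the third WT one, and it was 0 by limma-voom and 29 by DESeq2. A difference of Trf between the cell types did not pass when tested in the fit of all 24 libraries (−2.25, adjusted p = 0.253).

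Before transplantation few of these genes passed. In CD8+ cells 3 of 51 were lower in Cat-Tg (Trf, Saa2, Hamp), with a median of −2.19, and in CD4+ cells 4 of 55 (Hp, Lcat, Vtn, Agt), with a median of −1.17. Trf was at 45.4 ± 20.7 CPM in Cat-Tg and 541.8 ± 484.5 in WT CD8+ cells (−3.48, SE 0.76, adjusted p = 0.00990), and Hp at 34.7 ± 29.6 and 193.4 ± 145.5 CPM in CD4+ cells (−2.41, SE 0.70, adjusted p = 0.0242). These shares of 3 of 51 and 4 of 55 are near the 4.48% and 7.19% of all genes. They moved with single libraries, from 0 to 10 in CD8+ and from 0 to 11 in CD4+ cells, and the highest counts were those without the third WT library.

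Hepatocytes also hold mRNAs of enzymes and transporters that are not secreted, and 40 of these were listed. In post-tx CD4+ cells 27 of 35 tested were lower in Cat-Tg and 0 higher, with a median of −6.10. Of all tested genes, 6.45% were called lower in CD4+ and 0.570% in CD8+ post-tx cells. Mat1a, which makes S-adenosylmethionine in liver, was at 0.145 ± 0.180 CPM in Cat-Tg and 23.7 ± 17.2 in WT (−8.05, SE 1.28, adjusted p = 0.00159). In post-tx CD8+ cells 1 of 37 passed, Mat1a, at 0.0872 ± 0.123 and 22.4 ± 2.45 CPM (−7.96, SE 1.69, adjusted p = 0.0360), though the median of the list was −4.46. The count of 1 was 0 without the first or the second Cat-Tg library, 3 without the third and 2 without the first WT one, and it was 18 by DESeq2. In CD4+ cells the count of 27 was 17 without the second WT library. Ass1, an enzyme of arginine synthesis that many cells use, was level in both, at 134.4 ± 20.7 and 136.0 ± 24.3 CPM in CD4+ (−0.02, SE 0.26, adjusted p = 0.983) and 94.9 ± 23.3 and 95.5 ± 57.3 CPM in CD8+ cells (0.05, SE 0.51, adjusted p = 0.973). Before transplantation 1 of 37 (Fbp1) and 2 of 35 (Fah, Gnmt) were lower, with medians of −2.26 and −1.14. Those counts are not above the 4.48% (CD8+) and 7.19% (CD4+) of all tested genes called lower. Over single left-out libraries the pre-tx counts ran from 0 to 7 and from 0 to 4, highest without the third WT library.

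Many secreted and intracellular liver genes had few counts in Cat-Tg post-tx libraries. At most 3 counts in each Cat-Tg CD8+ post-tx library were found for 18 of the 61 secreted and 12 of the 40 other genes. In CD4+ post-tx libraries this held for 30 and 18 of them. Of the 61 secreted genes, 5 were above 1 CPM in every Cat-Tg post-tx library (Trf, Hp, Apoc4, Serpinc1, C8g), as were 3 of the 40 enzymes and transporters (Ass1, Fah, Tfr2). The other 93 genes summed to 6.22 to 39.6 CPM in Cat-Tg CD8+ and 21.5 to 38.7 CPM in Cat-Tg CD4+ post-tx libraries, and to 302.1 to 860.4 and 372.0 to 1506 CPM in the WT ones. These 93 were set by their Cat-Tg level, so low Cat-Tg sums follow in part from the choice. The full secreted list, Trf included, summed to 90.1 to 181.6 (Cat-Tg) and 319.4 to 1078 CPM (WT) in CD8+ post-tx cells. In CD4+ post-tx cells it was higher in Cat-Tg, at 1889 to 2958 against 770.5 to 1868 CPM. The full enzyme list held 91.2 to 148.4 (Cat-Tg) and 187.6 to 468.2 CPM (WT) in CD8+ cells. In CD4+ cells it held 140.6 to 191.1 and 279.4 to 664.8 CPM. At 0 counts in all 3 Cat-Tg CD8+ post-tx libraries were 9 of the 61 and 6 of the 40, and in WT CD8+ post-tx libraries 1 and 0. Liver transcription factors were barely measured: of 12 listed, 3 passed the filter in CD8+ and 4 in CD4+ cells, and 0 differed in any comparison. Hnf4a, the gene of a factor that defines hepatocytes, was below the filter in both, with 0 counts in Cat-Tg CD8+ post-tx libraries and 0.0455 to 1.03 CPM in WT.

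**Figure D4:**
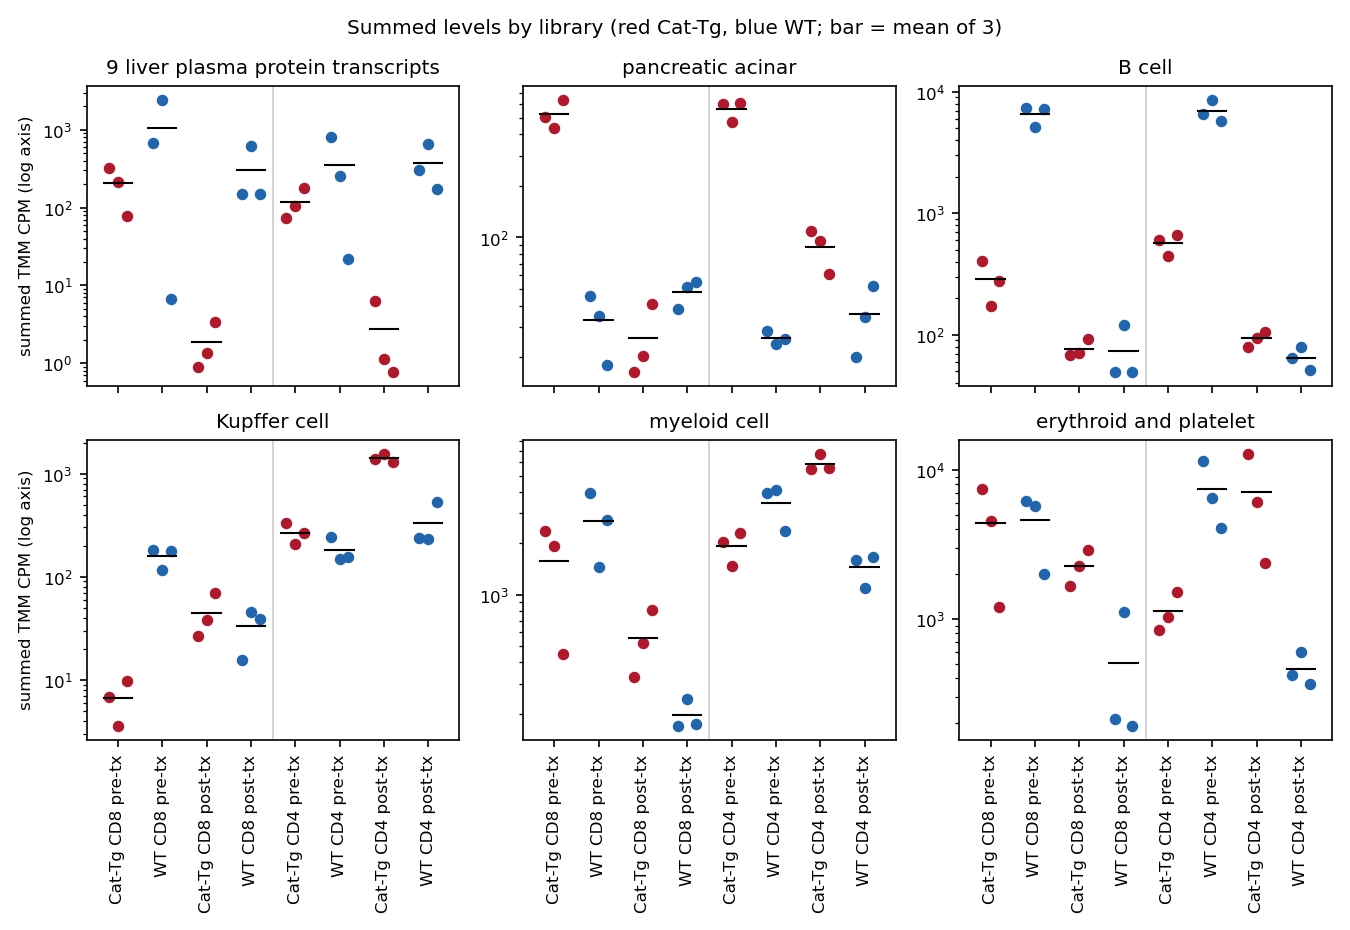
Summed CPM per library (log axis) of the 9 plasma protein genes and of the lists for pancreatic acinar cells, B cells, Kupffer cells, myeloid cells, and erythroid cells and platelets, by group, with Cat-Tg in red and WT in blue. The plasma protein panel has its lowest points in Cat-Tg post-tx (0.766 to 6.26 CPM), where the myeloid panel has its highest CD4+ points (5431 to 6702 CPM).

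Markers of other tissues and cells were read beside these genes, and their part in the plasma protein result was not tested. The counts of calls from here on stand beside these shares of all tested genes. Before transplantation 4.48% were called lower and 4.51% higher in Cat-Tg CD8+ cells, and 7.19% and 13.3% in CD4+ cells. After it the shares were 0.570% and 1.10% in CD8+ and 6.45% and 3.70% in CD4+ cells. Pancreatic acinar genes were higher in Cat-Tg before transplantation, 12 of 15 in CD8+ and 13 of 15 in CD4+ cells, with sums of 435.5 to 639.5 and 473.4 to 613.9 CPM against 17.9 to 45.4 and 23.9 to 28.3 CPM in WT. After transplantation 0 of 15 (CD8+) and 1 of 15 (Cela1, higher in CD4+) passed. The acinar sums were 16.3 to 40.8 CPM in Cat-Tg and 38.1 to 55.2 CPM in WT CD8+ cells. In CD4+ cells they were 60.9 to 109.4 CPM in Cat-Tg and 19.9 to 52.4 CPM in WT, with no overlap. Before transplantation the acinar genes were thus higher in Cat-Tg, where the fitted plasma protein differences were below 0. Intestinal, skeletal muscle, and kidney and lung lists stayed at or below 28.0 CPM in sum, and of their tested genes 1 passed in CD8+ pre-tx (Mylpf, higher) and 1 in CD4+ post-tx cells (Myh1, lower). After transplantation some of these low sums had smaller values in Cat-Tg, none with a gene called except Myh1. The intestinal list held 0.137 to 2.76 CPM in Cat-Tg and 2.55 to 8.63 CPM in WT CD8+ cells, and 0.192 to 2.58 and 1.76 to 6.58 CPM in CD4+ cells, with medians of −5.30 over 2 tested genes and −1.98 over 5. The kidney and lung list held 0.0639 to 0.529 CPM in Cat-Tg and 0.821 to 2.02 CPM in WT CD4+ cells, with no overlap, and 0 to 5.15 and 3.32 to 5.89 CPM in CD8+ cells, with 1 gene tested in each (−4.01 and −1.29). Skeletal muscle sums overlapped in CD8+ cells (15.1 to 19.2 and 15 to 28.0 CPM) and in CD4+ cells (6.25 to 10.5 and 8.83 to 9.95 CPM).

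Markers of myeloid cells and macrophages were higher in Cat-Tg CD4+ post-tx libraries. In CD4+ post-tx cells 8 of 12 myeloid genes were higher in Cat-Tg, with sums of 5431 to 6702 CPM against 1098 to 1666 in WT, and the Kupffer cell list, which spleen macrophages share in part, summed to 1297 to 1554 against 233.3 to 530.2 CPM. Of the list's 6 genes, Cd5l and Fcna were higher, and Clec4f, the one that marks Kupffer cells most narrowly, was lower, at 0 to 0.0213 CPM in Cat-Tg and 0.0410 to 6.55 in WT (adjusted p = 0.0157). In CD8+ post-tx cells 0 of 5 passed, with sums of 26.4 to 69.5 CPM in Cat-Tg and 15.4 to 45.1 CPM in WT, and Clec4f was at 0 in all 3 Cat-Tg libraries. Of the liver endothelial, biliary and stellate cell genes, Stab2 was higher in Cat-Tg CD4+ post-tx cells (63.4 ± 17.5 and 10.6 ± 4.61 CPM, 2.53, SE 0.50, adjusted p = 0.00513), and the other 6 tested did not pass, nor did any in the other 3 comparisons.

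Blood markers also moved with the genotype after transplantation. Erythroid and platelet genes summed to 2378 to 12843 CPM in Cat-Tg and 366.3 to 602.1 CPM in WT CD4+ post-tx cells, with 7 of 10 higher, and to 1657 to 2889 and 190.0 to 1117 CPM in CD8+ cells, with 1 of 9 higher (Slc4a1). In CD8+ cells 1 of 12 myeloid genes (Lyz2) was higher, with sums of 326.4 to 813.7 CPM in Cat-Tg and 168.4 to 244.3 in WT. B cell sums were 49.2 to 120.5 CPM in all post-tx libraries. T cell genes summed to 5701 to 20106 CPM in post-tx libraries, with 0 of 12 called in CD8+ and 2 of 12 (Cd247, Trac) lower in Cat-Tg CD4+ cells. The genotypes' sums of T cell genes overlapped in both cell types. Of B cell genes, 0 passed in CD8+ post-tx and 2 were lower and 3 higher in CD4+ post-tx cells. Before transplantation all 12 B cell genes were lower in Cat-Tg in both cell types, 8 (CD8+) and 12 (CD4+) of 12 T cell genes were higher, and 6 and 2 of 12 myeloid genes were lower. Of the Kupffer cell genes, Cd5l and Fcna were lower in CD8+ and Marco was higher in CD4+ pre-tx cells. Erythroid and platelet genes had 0 of 9 called in CD8+ and 4 of 10 lower in CD4+ pre-tx cells.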

How the data were processed

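RNA was sequenced in 24 libraries, 3 in each of 8 groups taken from the sample labels. Per the study's methods, both cell types were sorted from each mouse, with 3 mice for each genotype and time. RNA was extracted with miRNeasy and made into cDNA and libraries with SMART-Seq HT and Nextera XT. Per the labels and the submitters' processing notes, the authors quantified transcripts with kallisto 0.46.2, and the notes also name limma and the build mm9. The index release is not given in the sources used here. The deposited files hold estimated counts and TPM per transcript, both made by the authors with kallisto for each library.

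Here, estimated counts were summed per gene symbol and rounded. Of 117497 transcripts, 116374 matched GENCODE M21 and carried 99.57% to 99.75% of the counts. The fit took genes above 1 CPM in 3 or more of 12 libraries for each cell type and used edgeR 4.0.16 in R 4.3.3 (TMM scaling, quasi-likelihood test, prior count 2, Benjamini-Hochberg adjustment over all tested genes), with CD8 and CD4 libraries apart and 4 groups each. The code was checked on simulated data. Alternatives used DESeq2 1.42.0, limma 3.58.1 (voom), other scaling, filters, thresholds and left-out libraries. The fit of all 24 libraries comparing the cell types and the medians with bounds or floors were chosen after the data were seen.

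The 9 genes, the marker lists and the motifs were chosen with earlier results of these data known. Named were the 9 genes and 4 Serpina1 paralogs, from each list up to 6 genes with the highest mean post-tx CPM, the 15 genes most like the mean of the 9, and Cd4, Cd8a and Ctnnb1. A gene that this rule selects is not reported here. Further genes in counts of calls were named after their values were seen. Promoter windows came from RefSeq, 8 of 9 genes matching by symbol.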

Additional observations from a re-analysis of the deposited data

How the results depend on the processing

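Counts of genes lower in Cat-Tg depended on the tool and on single libraries, most of all before transplantation, where the WT libraries scattered. For the 9 plasma protein genes before transplantation (0 in CD8+ and 0 in CD4+ cells in the edgeR fit), DESeq2's size factors gave 1 in CD4+ cells, no filter 1 and 1, DESeq2 1 and 2, and the 6 libraries alone 1 in CD4+ cells. For the 61 other secreted proteins, CD8+ pre-tx (3) gave 1 with DESeq2's size factors, 6 with no filter, 1 with limma-voom, 9 with DESeq2 and 0 with the 6 libraries alone. CD4+ pre-tx (4) gave 1 with no filter, 1 with limma-voom and 11 with DESeq2. CD8+ post-tx (11) gave 0 with limma-voom, 29 with DESeq2 and 5 with the 6 libraries alone. For the 40 enzymes and transporters, CD8+ pre-tx (1) gave 0 with limma-voom, 3 with DESeq2 and 0 with the 6 libraries alone, CD8+ post-tx (1) gave 3 with no filter, 0 with limma-voom and 18 with DESeq2, and CD4+ pre-tx (2) gave 1 with no filter, 1 with limma-voom, 4 with DESeq2, 1 with the 6 libraries alone and 1 at an absolute log2 difference of at least 2. The summed level in CD8+ post-tx cells had a log2 ratio of −5.46 by TPM. The causes were not tested.

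Leaving out 1 library at a time gave 0 to 4 (CD8+) and 0 to 5 (CD4+) of the 9 genes pre-tx, 0 to 10 and 0 to 11 of the secreted list pre-tx, 0 to 11 and 26 to 42 of it post-tx, 0 to 7 and 0 to 4 of the enzymes pre-tx, and 0 to 3 and 17 to 26 of them post-tx. The summed ratio was −8.08 to −6.30 in CD8+ and −8.63 to −6.45 in CD4+ post-tx cells. Pre-tx log2 differences that changed sign were Apoa1 in CD8+ (−2.52 to 0.30), and in CD4+ cells Alb (−0.83 to 0.92, also 0.30), Fga (−0.77 to 0.35, also 0.11 and 0.17) and Apoa2 (−2.26 to 0.57). By limma-voom Alb was 0.14, Apoa1 1.38, Apoa2 0.08 and Serpina1c 0.37 in CD8+, and Alb 0.99 and Fga 0.86 in CD4+ pre-tx cells.

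The groups share replicate numbers, but deviations of libraries of the same number correlated at −0.218 to 0.201, so that the numbers were not taken as pairing. Libraries that correlated best with their own number were 6 of 6 in CD8+ pre-tx, 1 of 6 in CD8+ post-tx, 2 of 6 in CD4+ pre-tx and 4 of 6 in CD4+ post-tx. With the replicate number as a block (replicate block), the secreted list gave 1 (CD8+ pre-tx), 6 (CD8+ post-tx) and 2 (CD4+ pre-tx), the enzymes 0 and 1 pre-tx, and CD4+ pre-tx Alb and Fga were 0.87 and 0.47. All post-tx differences of the 9 genes were negative under every alternative run.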
